A study of Mus musculus with 2 samples.

Results

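Wnt ligands, the receptors that bind them and the secreted proteins that inhibit them were followed in mammary epithelial cells (MECs) of lactating WT and Igfbp7-/- mice. The members were taken by gene symbol, without use of their values, and comprised 46 of the 25810 genes with a symbol: 19 Wnt ligands, 10 Frizzled receptors, 5 further receptors (Lrp5, Lrp6, Ror1, Ror2 and Ryk), 3 Lgr receptors and 9 secreted inhibitors. Poly(A) RNA came from inguinal glands at lactation day 3, after magnetic removal of lineage-positive cells, and was sequenced in 2 libraries, 1 of each genotype. Lineage-positive cells were those with CD45, Ter119 or a marker named CD35 in the labels and CD31, an endothelial protein, in the methods. The labels give a C57BL/6 background to both groups, whereas the methods name CD1. The WT mice served as controls, and the Igfbp7-/- mice carried a germline deletion of the first exon of Igfbp7, so the loss was not limited to the MECs. The age of the mice and the number of animals behind each library were not given in the sources used here.

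Wnt proteins are secreted ligands that bind Frizzled receptors together with a co-receptor. With Lrp5 or Lrp6 they stabilise beta-catenin, which activates target genes with TCF and LEF factors, and with Ror or Ryk receptors they act without beta-catenin, on cell polarity and calcium. R-spondins bind Lgr receptors and keep Frizzled receptors at the cell surface. In the mammary gland, Wnt signals are known for ductal branching, for the growth of alveoli in pregnancy and for the upkeep of basal stem cells.

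The libraries held 34327854 mapped reads (WT) and 35016847 (Igfbp7-/-), of which 82.33% and 72.27% fell in the listed genes. Igfbp7, the targeted gene, had 5224 reads in WT and 37 in Igfbp7-/-. With 1 library per genotype no difference had a replicate check and a test that needs replicates could not be made. A gene was called higher or lower only at a ratio of at least 1.5 between the libraries, computed from reads-per-million values (RPM) with 0.1 RPM added, among the 14026 genes that reached 1 RPM in at least 1 library. Ranges in brackets are 95% intervals on read pairs and cover counting error alone. Of all these genes 21.4% were called higher and 23.0% lower in Igfbp7-/-, and the median log2 ratio was 0.04.

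Marker genes of other cell types also differed between the libraries, and in such bulk RNA fewer cells of a type and less RNA per cell cannot be told apart. Of the basal myoepithelial markers 11 of 12 were lower in Igfbp7-/-, led by Acta2 (1052 and 226.7 RPM, WT first here and below) and Myh11 (883 and 343.5 RPM), and the summed level of that list was 4156 and 1362 RPM. The milk genes were lower in 8 of 8, with Csn2 at 53087 and 19970 RPM and Csn1s1 at 23507 and 9790 RPM. In the hormone-sensing luminal list 5 of the 6 markers past the minimum were higher, among them Esr1 (4.46 and 10.9 RPM), while Ly6a was at 108 and 106 RPM. In the luminal progenitor list 4 of 7 were higher, among them Krt18 (250.4 and 1174 RPM), while Cd14 (470 and 677 RPM) was not called. Markers of lineage-positive cells were present despite the depletion, and 7 of 8 endothelial (Cdh5, 584 and 184 RPM) and 10 of 11 leukocyte markers (H2-Aa, 81.1 and 5.57 RPM) were lower in Igfbp7-/-. Fibroblast markers were lower in 6 of 12 and higher in 1, with Col3a1 at 4670 and 1950 RPM. The part of these cell types in the Wnt results below was not tested.

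Of the 46 members 32 reached 1 RPM in at least 1 library. Among these 32, 12 (37.5%) were higher and 8 (25%) were lower in Igfbp7-/-, beside 21.4% and 23.0% of all genes, and 12 lay within the 1.5-fold limits. Their median log2 ratio was 0.24. The remaining 14 had between 0 and 32 reads in WT and between 0 and 19 in Igfbp7-/-. They were Wnt1, Wnt3, Wnt3a, Wnt6, Wnt7a, Wnt8a, Wnt8b, Wnt9b, Wnt16, Fzd9, Fzd10, Dkk1, Frzb and Sfrp5. A count of 0, as for Wnt3a in both libraries, allows up to 0.215 and 0.211 RPM, the upper bounds of the interval on read pairs.

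**Figure D1:**
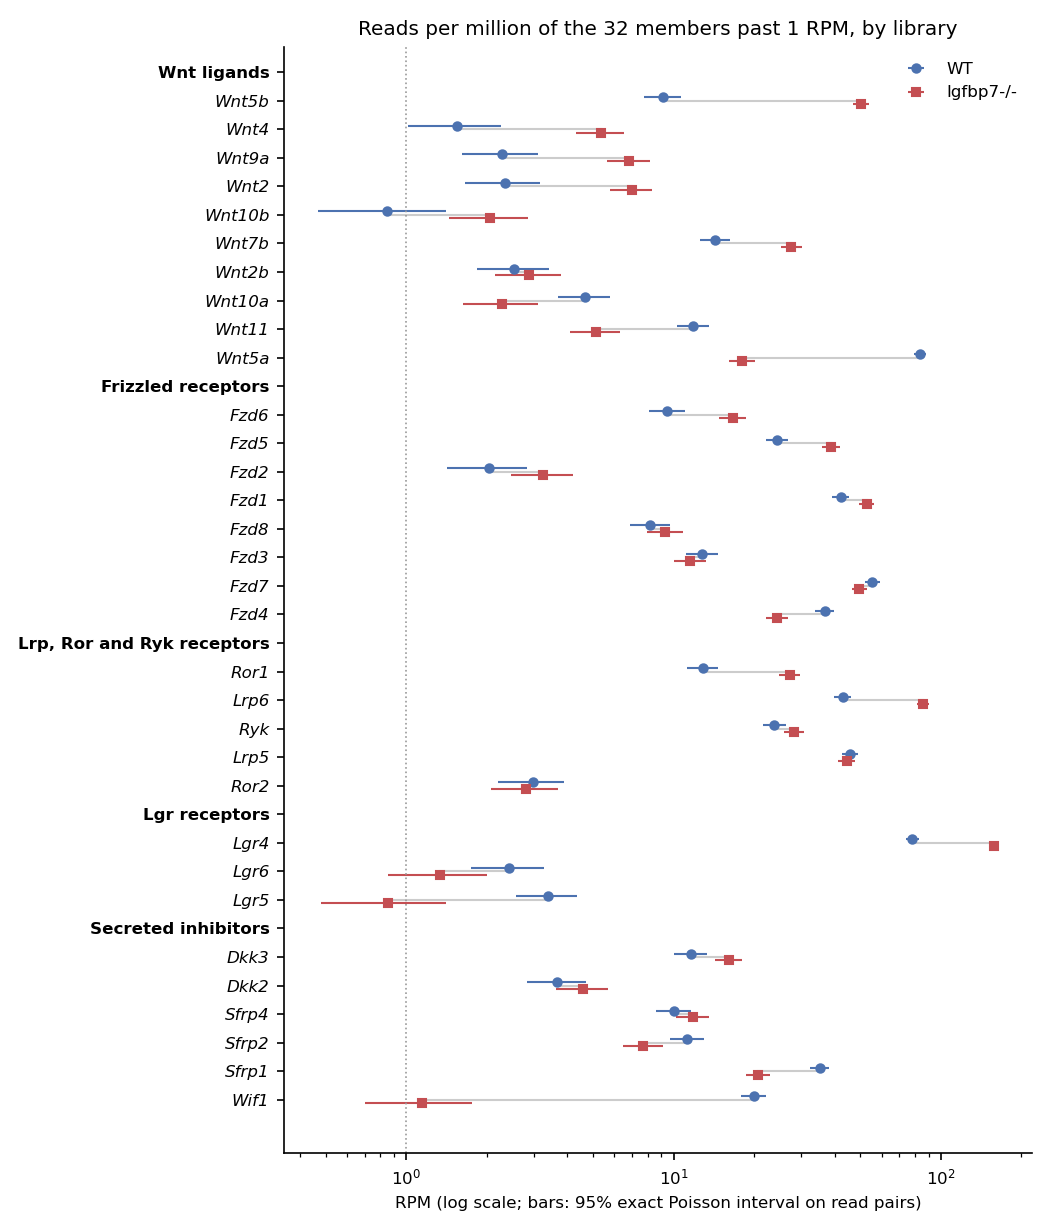
RPM (log axis) of the 32 members that reached 1 RPM (dotted line) in at least 1 library, with blue circles for WT, red squares for Igfbp7-/- and bars for the 95% exact Poisson interval on read pairs. Wnt5b and Wnt5a lie far apart in opposite directions, and Wif1 shows the widest gap of all, from 19.9 RPM to 1.14 RPM.

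The classes differed in their summed level. The 19 ligands summed to 134.0 and 128.7 RPM, a ratio of 0.961 (0.906 to 1.02) that turned above 1 under some other scalings (0.938 to 1.11). None of these scalings was per length. With each RPM divided by the gene length in kilobases (RPKM), the ligands summed to 38.9 in WT and 48.7 in Igfbp7-/-. The direction of the ligand sum thus depended on the unit. Of the 10 ligands past the minimum 9 (90%) were called in either direction, beside 44.5% of all genes. The Frizzled receptors summed to 191.7 and 207.2 RPM, a ratio of 1.08 (1.03 to 1.13). The Lrp, Ror and Ryk receptors summed to 128.4 and 188.2 RPM, a ratio of 1.47 (1.39 to 1.55). These receptor sums lay above the WT value under every scaling tried.

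The Lgr receptors summed to 84.0 and 159.8 RPM, a ratio of 1.90 (1.78 to 2.03), while the median log2 ratio of the 3 genes was -0.80, because Lgr4 held most of the reads and the other 2 were lower. The secreted inhibitors were the one class whose sum was smaller under every scaling, at 93.1 and 62.2 RPM, a ratio of 0.668 (0.617 to 0.721). That ratio lay between 0.652 and 0.772 over the scalings tried. The median log2 ratio of the 6 inhibitors past the minimum was -0.15. Of these 6 only Wif1 (19.9 and 1.14 RPM) and Sfrp1 (35.2 and 20.7 RPM) were called lower, and 4 were not called.

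**Figure D2:**
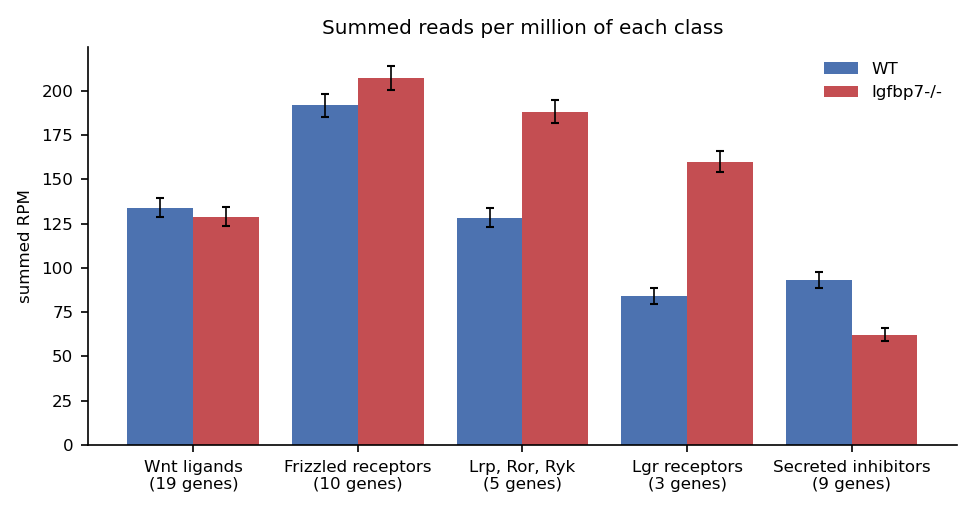
Summed RPM of each class in WT (blue) and Igfbp7-/- (red), with 95% exact Poisson intervals on read pairs. The ligand bars nearly match at 134.0 and 128.7 RPM, the bars of the Lgr receptors and of the Lrp, Ror and Ryk receptors are taller in Igfbp7-/-, and the inhibitor bar is shorter.

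Among the ligands, Wnt5a and Wnt5b exchanged places. They are close paralogs that act mostly without beta-catenin, and Wnt5a is known for restraining ductal growth. Since reads of such similar genes can be misplaced, the most alike 75-base stretch of their coding sequences is shown, 5′ to 3′, with the differing bases in capitals. It lies in exon 5 of 5 of both genes (build NCBIM37), at chr14:29335929-29336003 on the plus strand for Wnt5a and at chr6:119383539-119383613 on the minus strand for Wnt5b, within coding bases 946 to 1020 of 1143 and 922 to 996 of 1119.
Wnt5a: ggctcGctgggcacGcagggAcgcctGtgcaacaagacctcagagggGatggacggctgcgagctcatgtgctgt
Wnt5b: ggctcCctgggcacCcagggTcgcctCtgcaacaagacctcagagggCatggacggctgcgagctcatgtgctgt
Even here 5 of 75 bases differ, more than the 3 mismatches allowed in mapping, and no 75-base window of either transcript matched the other within that limit. Of the 35-base windows of the Wnt5b transcript, 109 of 2305 (4.73%) matched Wnt5a with at most 3 mismatches. In the other direction 109 of 6975 windows (1.56%) of Wnt5a matched Wnt5b.

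Wnt5a had 2859 and 633 reads (83.3 and 18.1 RPM). It was 4.59-fold lower, with a log2 ratio of -2.20 (-2.38 to -2.03). For Wnt5b there were 312 and 1758 reads (9.09 and 50.2 RPM). It was 5.47-fold higher, with a log2 ratio of 2.45 (2.22 to 2.72), the highest of all members. Per transcript length (RPKM, the RPM divided by the gene length in kilobases), Wnt5a was the most abundant ligand of WT at 19.5 RPKM, 50.1% of the ligand total, and Wnt5b that of Igfbp7-/- at 21.1 RPKM, 43.2% of the total. Wnt5a thus exceeded Wnt5b per length by 5.11-fold (4.33 to 6.07) in WT, and Wnt5b exceeded Wnt5a by 4.98-fold (4.37 to 5.68) in Igfbp7-/-. The RPKM of Wnt5a rests on 61.0% of its longest annotated coding transcript, and with the longest transcripts these ratios were 3.06 (2.59 to 3.63) and 8.32 (7.31 to 9.49).

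Another 5 ligands were higher in Igfbp7-/-. Wnt4, a ligand of luminal cells that mediates progesterone-driven branching, had 53 and 187 reads (1.54 and 5.34 RPM), a ratio of 3.31 and a log2 ratio of 1.73 (1.16 to 2.47). Beside it, Pgr, the progesterone receptor and a marker singled out after its values were seen, had 0.932 and 5.60 RPM. The part of hormone-sensing cells in the level of Wnt4 was not tested.

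Wnt9a had 78 and 239 reads (2.27 and 6.83 RPM), with a log2 ratio of 1.55 (1.05 to 2.15). Wnt2, known from the mammary stroma, had 80 and 244 reads (2.33 and 6.97 RPM), with a log2 ratio of 1.54 (1.05 to 2.13). Both were therefore near 2.9-fold higher, at ratios of 2.92 and 2.91. Wnt7b, a ligand of luminal epithelium, had 492 and 965 reads (14.3 and 27.6 RPM), a ratio of 1.92 and a log2 ratio of 0.94 (0.72 to 1.17). Wnt10b, a beta-catenin ligand of the embryonic mammary bud and an inhibitor of fat cell formation, rose from 29 to 72 reads (0.845 and 2.06 RPM), a log2 ratio of 1.19 (0.37 to 2.27) whose lower bound lies under the 1.5-fold limit of 0.585.

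Wnt11 and Wnt10a fell along with Wnt5a. Wnt11, which acts mostly without beta-catenin, had 406 and 179 reads (11.8 and 5.11 RPM), a 2.29-fold lower level with a log2 ratio of -1.19 (-1.59 to -0.84). Wnt10a, a ligand of skin appendages and mammary buds, had 160 and 80 reads (4.66 and 2.28 RPM), a log2 ratio of -0.997 (-1.61 to -0.46). Wnt2b was the one ligand past the minimum that was not called, with 87 and 101 reads (2.53 and 2.88 RPM) and a log2 ratio of 0.18 (-0.43 to 0.81).

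The order of the ligands per length changed below the leading gene too. In WT, Wnt5a was followed by Wnt11 (4.24 RPKM), Wnt7b (4.08 RPKM), Wnt5b (3.81 RPKM), Wnt10a (2.36 RPKM) and Wnt4 (1.40 RPKM). In Igfbp7-/-, Wnt5b was followed by Wnt7b (7.85 RPKM), Wnt4 (4.85 RPKM), Wnt5a (4.23 RPKM) and Wnt2 (3.30 RPKM). The counting intervals of Wnt11, Wnt7b and Wnt5b overlapped in WT, as did those of Wnt10a and Wnt4. In Igfbp7-/- those of Wnt4 and Wnt5a overlapped, as did those of Wnt5a and Wnt2, so the order within these sets was not settled. The length behind the Wnt4 value was 1101 bases, 26.3% of its longest annotated coding transcript. With the longest transcripts Wnt5a (11.9 RPKM) and Wnt5b (21.5 RPKM) still led, Wnt7b came next in both libraries (4.10 and 7.89 RPKM), and Wnt4 had 0.368 and 1.27 RPKM. At these lengths the interval of Wnt7b overlapped those of Wnt5b and Wnt11 in WT, so its place was settled only in Igfbp7-/-.

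**Figure D3:**
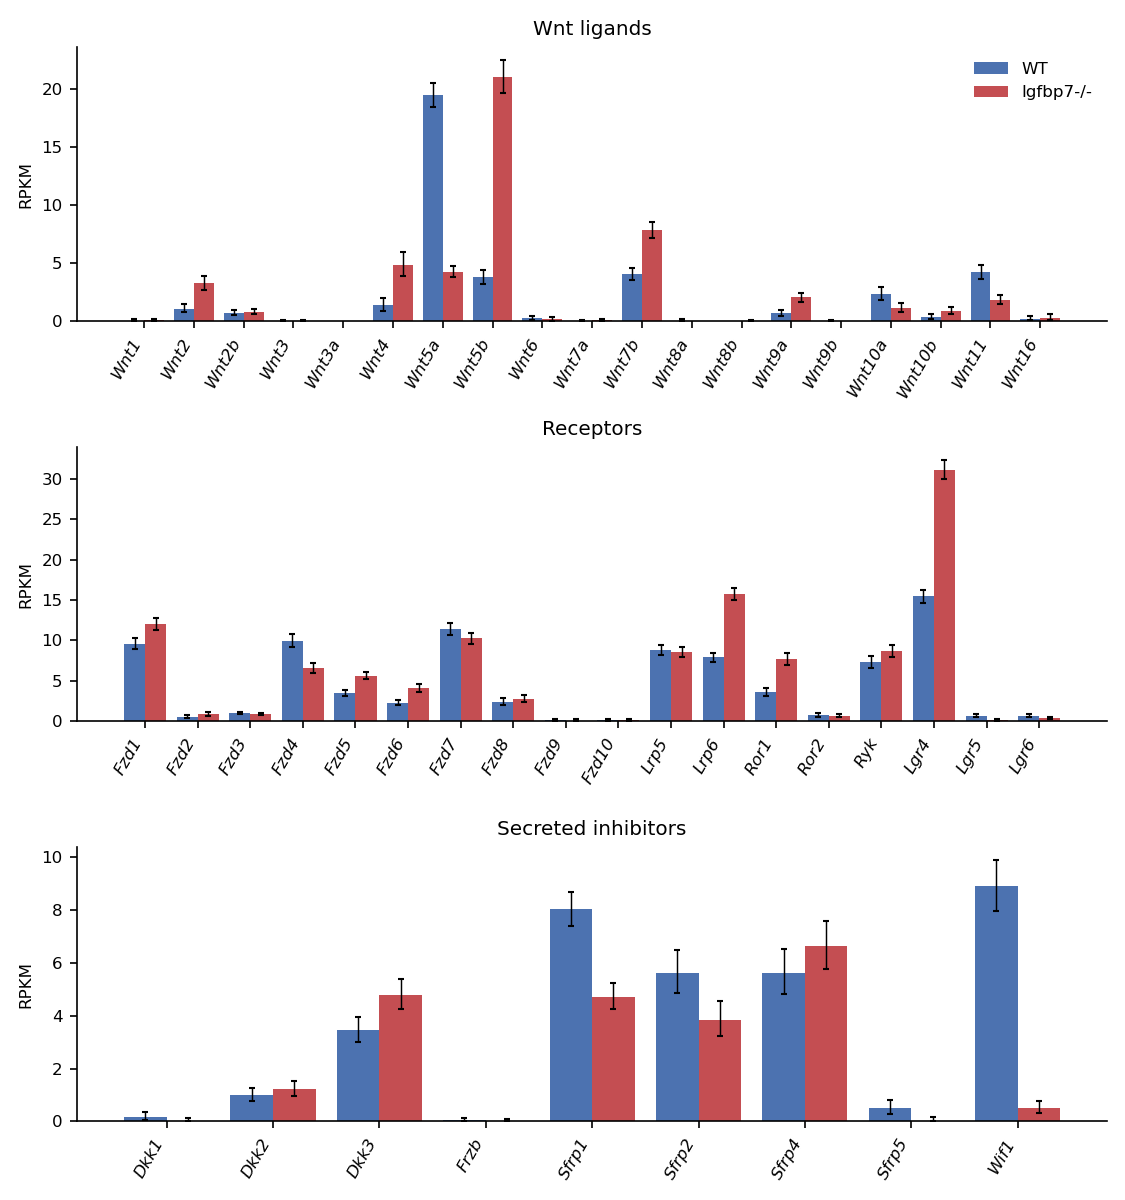
RPKM of every ligand, receptor and secreted inhibitor in WT (blue) and Igfbp7-/- (red), with bars from 0 and 95% exact Poisson intervals on read pairs. The tall ligand bar moves from Wnt5a (19.5 RPKM) in WT to Wnt5b (21.1 RPKM) in Igfbp7-/-, Lgr4 is the tallest receptor in both, and the Wif1 bar falls to 0.51 RPKM.

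Several ligand genes stand side by side in the genome. Wnt6 and Wnt10a lie 6196 bases apart on chromosome 1, Wnt10b and Wnt1 11706 bases apart on chromosome 15, and Wnt3a and Wnt9a 16175 bases apart on chromosome 11. In each of these 3 pairs 1 gene carried most reads: Wnt10a, Wnt10b and Wnt9a passed the minimum, whereas Wnt6 (19 and 12 reads), Wnt1 (4 and 6 reads) and Wnt3a (0 reads in both) did not. In a further pair on chromosome 11, Wnt9b and Wnt3, 24328 bases apart, neither gene passed, with 2 and 0 reads for Wnt9b and 2 and 2 for Wnt3.

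Of the 8 Frizzled receptors past the minimum, 3 (37.5%) were higher and 1 (12.5%) was lower, beside 21.4% and 23.0% of all genes. The other 4 were not called. Frizzled proteins are the membrane receptors that bind Wnts directly. Fzd6, which is tied to planar polarity, had 325 and 585 reads (9.47 and 16.7 RPM), a log2 ratio of 0.81 (0.54 to 1.11). Fzd5 had 837 and 1361 reads (24.4 and 38.9 RPM), a log2 ratio of 0.67 (0.50 to 0.85). Fzd2 had only 70 and 114 reads (2.04 and 3.26 RPM), and its log2 ratio of 0.65 (0.04 to 1.33) was no longer called with 1 RPM added. These increases lay between 1.57-fold and 1.76-fold.

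Fzd4, which is also the receptor of the non-Wnt ligand norrin in blood vessels, had 1262 and 852 reads (36.8 and 24.3 RPM). Its log2 ratio of -0.59 (-0.78 to -0.42) lay at the edge of the 1.5-fold limit, and scaling to listed reads gave -0.41, which was not called. The endothelial markers were lower in 7 of 8, with a summed level of 1334 and 429 RPM, and their part in the Fzd4 value was not tested.

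The more abundant Frizzled genes differed less. Fzd7, a receptor studied in mammary basal stem cells, had 1899 and 1735 reads (55.3 and 49.5 RPM), a log2 ratio of -0.16 (-0.29 to -0.03), which became 0.03 when scaled to listed reads. Fzd1 had 1446 and 1852 reads (42.1 and 52.9 RPM), a log2 ratio of 0.33 (0.19 to 0.47). Fzd3 had 439 and 405 reads, at 12.8 and 11.6 RPM. Fzd8 had 281 and 326 reads, at 8.19 and 9.31 RPM. Per length, Fzd7 (11.4 RPKM), Fzd4 (9.98 RPKM) and Fzd1 (9.58 RPKM) led in WT, where the intervals of Fzd7 and Fzd4 and those of Fzd4 and Fzd1 overlapped, and Fzd1 (12.03 RPKM), Fzd7 (10.2 RPKM) and Fzd4 (6.60 RPKM) in Igfbp7-/-, where none of the 3 overlapped. Reads of Fzd1, Fzd2 and Fzd7 are the least certain of the class, since 12.4% of the 35-base windows of Fzd2 and 10.3% of those of Fzd1 matched the other with at most 3 mismatches, as did 3.71% and 3.07% of their 75-base windows.

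The co-receptors for the beta-catenin route parted. Lrp6 had 1476 and 2995 reads (43.0 and 85.5 RPM), a ratio of 1.99 and a log2 ratio of 0.99 (0.86 to 1.12). Lrp5 had 1571 and 1553 reads (45.8 and 44.4 RPM), a log2 ratio of -0.05 that was 0.14 when scaled to listed reads. Per length, Lrp6 went from 0.893 of Lrp5 (0.807 to 0.989) in WT to 1.83 of Lrp5 (1.68 to 2.002) in Igfbp7-/-. The length behind Lrp6 was 58.1% of its longest annotated coding transcript, and with the longest transcripts the ratios were 0.519 (0.469 to 0.574) and 1.07 (0.976 to 1.16).

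The receptors that act without beta-catenin showed the same kind of split. Ror1, a receptor tyrosine kinase-like protein that binds Wnt5a, had 441 and 954 reads (12.8 and 27.2 RPM), a ratio of 2.11 and a log2 ratio of 1.08 (0.85 to 1.32). Its relative Ror2 had 102 and 98 reads (2.97 and 2.80 RPM). Ryk, a further Wnt receptor, had 818 and 989 reads (23.8 and 28.2 RPM), a log2 ratio of 0.24 (0.05 to 0.44). Ror1 was the more abundant Ror gene per length in both libraries, by 4.87-fold (3.58 to 6.74) in WT and 10.96-fold (8.16 to 15.02) in Igfbp7-/-. With the longest annotated transcripts, of which the length behind Ror1 was 61.5%, these values were 2.99 (2.20 to 4.14) and 6.73 (5.01 to 9.23).

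Lgr4, the R-spondin receptor found broadly in epithelia, had 2684 and 5517 reads (78.2 and 157.6 RPM), a ratio of 2.01 and a log2 ratio of 1.01 (0.92 to 1.11). Lgr5, a stem cell marker of the intestine and of hair follicles, fell from 116 to 30 reads (3.38 and 0.857 RPM), a 3.64-fold lower level with a log2 ratio of -1.86 (-2.91 to -1.14). Lgr6 had 83 and 47 reads (2.42 and 1.34 RPM), a log2 ratio of -0.80 (-1.65 to -0.09) that was not called with 1 RPM added. Per length Lgr4 was 91.8% of the class in WT and 98.3% in Igfbp7-/-, and its ratio to Lgr5 went from 21.5 (16.5 to 28.5) to 171 (103.5 to 306). Lgr5 and Wnt4 shared 41 of the 4640 75-base windows of the Lgr5 transcript (0.884%) with at most 3 mismatches.

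Of the 6 secreted inhibitors past the minimum 2 (33.3%) were lower, beside 23.0% of all genes. None was called higher, beside 21.4% of all genes, although scaling to listed reads called Dkk3 higher. Wif1, which binds Wnt ligands outside the cell, had 684 and 40 reads (19.9 and 1.14 RPM). It was 16.1-fold lower, with a log2 ratio of -4.01 (-4.85 to -3.48), the strongest decrease among the members. Per length it stood at 8.89 RPKM in WT, 26.7% of the class and with an interval that overlapped that of Sfrp1 (8.02 RPKM), and in Igfbp7-/- it made up 2.34%. Sfrp1, a Frizzled-like decoy of Wnts, had 1209 and 725 reads (35.2 and 20.7 RPM), a 1.70-fold lower level with a log2 ratio of -0.76 (-0.96 to -0.58), and was not called when scaled to protein-coding reads (-0.555).

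The other inhibitors stayed within the limits. Sfrp2, a decoy of the same family, had 386 and 270 reads (11.2 and 7.71 RPM), and its log2 ratio of -0.54 (-0.87 to -0.22) lay just inside the limit. Sfrp4 had 344 and 413 reads (10.02 and 11.8 RPM), a log2 ratio of 0.23. Dkk3, a divergent member of the Dickkopf family, had 398 and 563 reads (11.6 and 16.1 RPM), a log2 ratio of 0.47 (0.21 to 0.74) that became 0.66 when scaled to listed reads. Dkk2, which binds Lrp5 and Lrp6, had 126 and 160 reads (3.67 and 4.57 RPM). In Igfbp7-/- the inhibitors highest per length were Sfrp4 (6.63 RPKM), Dkk3 (4.79 RPKM) and Sfrp1 (4.72 RPKM), the last pair with overlapping intervals. The length behind Sfrp4 was 44.0% of its longest annotated coding transcript, at whose length it had 2.91 RPKM, below Dkk3, Sfrp1 and Sfrp2.

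Below the minimum, Sfrp5 went from 32 to 2 reads and Dkk1, which blocks Lrp5 and Lrp6, from 14 to 2 reads. Sfrp5, at 0.932 RPM in WT just under the minimum and with a log2 ratio of -2.72 (-9.42 to -1.34), was called lower under 5 alternatives that removed the minimum or moved the scale, and Dkk1 only without a minimum. The basal and fibroblast markers, went from 4156 to 1362 RPM and from 9977 to 5245 RPM in their sums, beside the inhibitors, and their part in the inhibitor values was not tested.

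**Figure D4:**
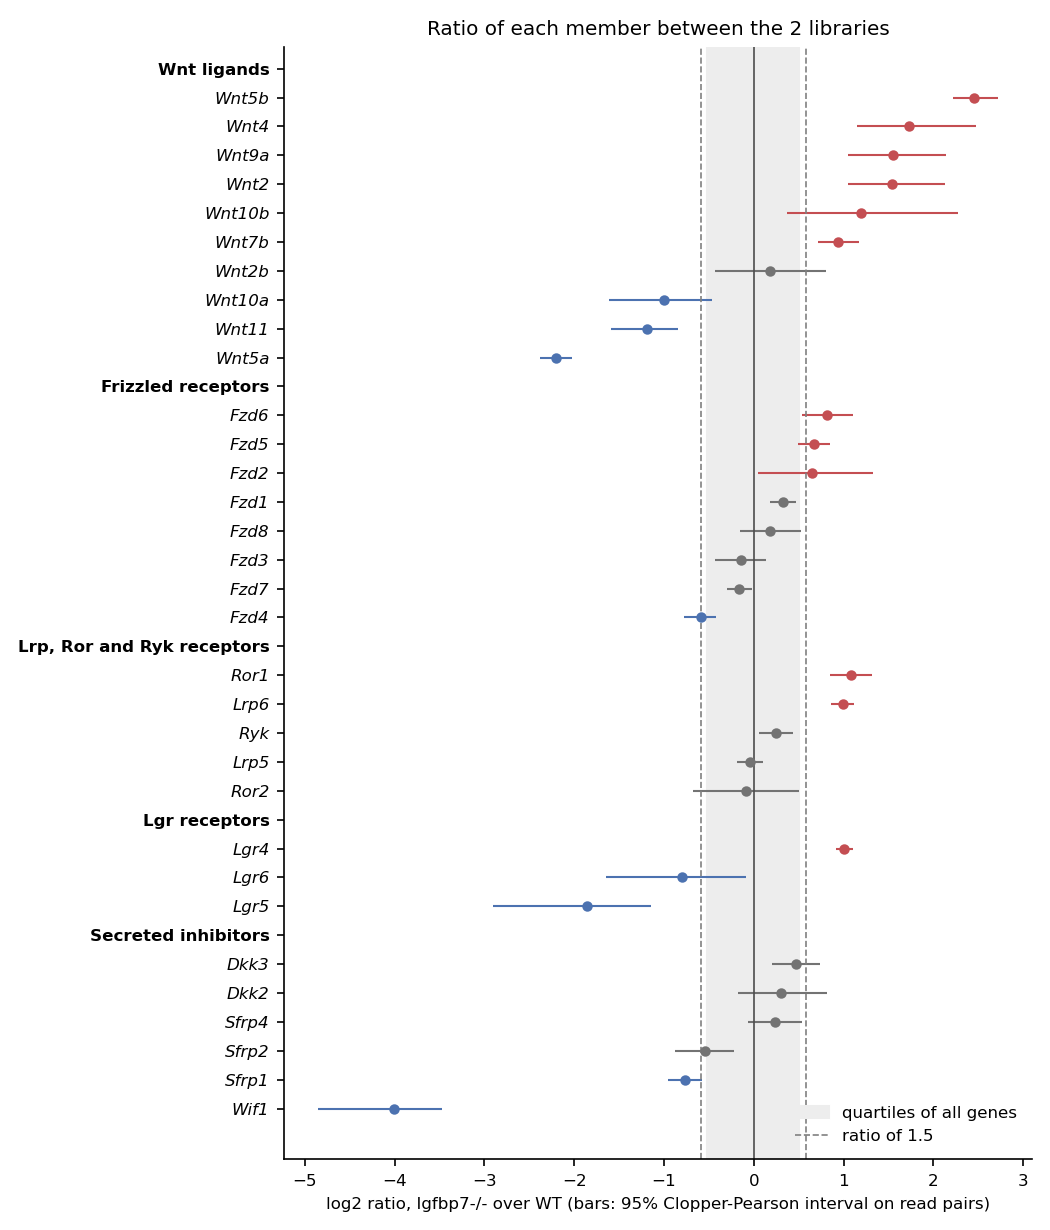
Log2 ratio of Igfbp7-/- over WT for the 32 members past the minimum, ordered within each class, with 95% Clopper-Pearson intervals on read pairs, dashed lines at the 1.5-fold limits and a grey band for the quartiles of all genes (-0.52 to 0.51). Red marks the 12 higher and blue the 8 lower members, and at this scaling no inhibitor is red.

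The promoters of the members were searched for the letters that TCF and LEF factors recognise, since several Wnt genes feed back on the pathway. The search used CTTTG followed by a pair of bases that are each A or T, on both strands of RefSeq windows of 300 bases around each start (build GRCm38.p6), which were given for 32 of the 46 members. A match was found in 5 of 35 member promoters (14.3%), beside 5544 of all 32851 promoters (16.9%). Among the called members Wnt5b and Wnt11 had one, in windows at chr6:119449439-119449469 (minus strand) and chr7:98835049-98835079 (plus strand). These stretches are shown with the match in capitals, at 71 and 51 bases before the start.
Wnt5b: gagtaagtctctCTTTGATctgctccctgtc
Wnt11: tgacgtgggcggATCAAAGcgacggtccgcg
Wnt5b was higher and Wnt11 lower in Igfbp7-/-, so called members of both directions held the letters.

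The rest of the pathway was described from 4 lists that exclude the members. Of their 143 genes found, 122 passed the minimum, of which 27 (22.1%) were higher and 25 (20.5%) lower, close to the 21.4% and 23.0% of all genes, and the median log2 ratio was -0.01. The share of higher genes among those called was 51.9%, and it was 64.9% when scaled to listed reads and 64.4% when scaled to protein-coding reads. Over all genes that share moved likewise, from 48.2% to 62.2% and 63.6%, and among the members from 60% to 65% under both.

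In the secretion and extracellular list 4 of 17 genes (23.5%) were higher and 5 (29.4%) lower, beside 21.4% and 23.0% of all genes. Rspo1, an R-spondin that binds the Lgr receptors, rose from 70 to 328 reads (2.04 and 9.37 RPM), a log2 ratio of 2.15 (1.67 to 2.77). Wls, the carrier that brings Wnts to the cell surface, fell from 60.2 to 30.8 RPM, a log2 ratio of -0.97. Porcn, which attaches the lipid that Wnts need, had 3.23 and 2.28 RPM and was not called. Of the ubiquitin ligases that remove Frizzled receptors, Rnf43 fell from 18.6 to 7.71 RPM (log2 ratio -1.26), while Znrf3 had 11.5 and 15.7 RPM (0.45) and was not called. Gpc6, a glypican of the cell surface, fell from 55.1 to 29.5 RPM. Kremen1, a co-receptor of Dickkopf proteins, and the glypican Gpc4 lay near 1, at log2 ratios of 0.14 and 0.10. Sostdc1, a secreted inhibitor outside the members and singled out after its values were seen, had 170 and 18 reads (4.95 and 0.514 RPM), a log2 ratio of -3.04 (-4.45 to -2.28).

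In the beta-catenin core list 13 of 43 genes (30.2%) were higher and 2 (4.7%) lower, beside 21.4% and 23.0% of all genes. The median log2 ratio of this list was 0.22. Bcl9, a beta-catenin coactivator, rose from 8.04 to 49.4 RPM (log2 ratio 2.60), the scaffold-binding proteins Dact2 from 9.73 to 42.3 RPM (2.11) and Dact1 from 9.38 to 22.3 RPM (1.24). Ctnnb1, beta-catenin itself, had 361 and 285 RPM (-0.34) and was not called. Aes, a corepressor of the TLE family, fell from 50.7 to 29.7 RPM, and the kinase gene Csnk1g2 had 20.9 and 16.9 RPM without a call.

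In the planar polarity and calcium list 7 of 38 genes (18.4%) were higher and 7 (18.4%) lower, beside 21.4% and 23.0% of all genes. The polarity genes Scrib (16.8 to 38.6 RPM), Celsr2 (17.8 to 40.5 RPM) and Prickle1 (8.16 to 16.3 RPM) rose, with log2 ratios of 1.20, 1.18 and 0.99. Plcb1, a phospholipase of the calcium route, fell from 30.03 to 13.8 RPM, Daam2 from 27.4 to 14.7 RPM and Prickle3 from 10.9 to 6.25 RPM. Genes of one route thus lay on both sides.

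In the target and feedback list 3 of 24 genes (12.5%) were higher and 11 (45.8%) lower, beside 21.4% and 23.0% of all genes. The median log2 ratio of this list was -0.42. Axin2, the feedback gene most used as a readout of beta-catenin activity, had 71 and 107 reads (2.07 and 3.06 RPM), a log2 ratio of 0.54 (-0.08 to 1.22), and was not called. Lef1 had 20 and 14 reads and did not reach the minimum, and its relative Tcf7 fell from 17.4 to 8.42 RPM (-1.04). Fst, an activin antagonist, fell from 187 to 69.5 RPM and Cd44, an adhesion receptor, from 773 to 347 RPM. Myc, a growth regulator with many inputs besides Wnt, rose from 108 to 336 RPM (1.64) and Edn1, a secreted peptide, from 125 to 193 RPM (0.63), while Jun had 577 and 776 RPM (0.43) without a call. Genes of this list thus lay on both sides, most of the called ones lower.

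**Figure D5:**
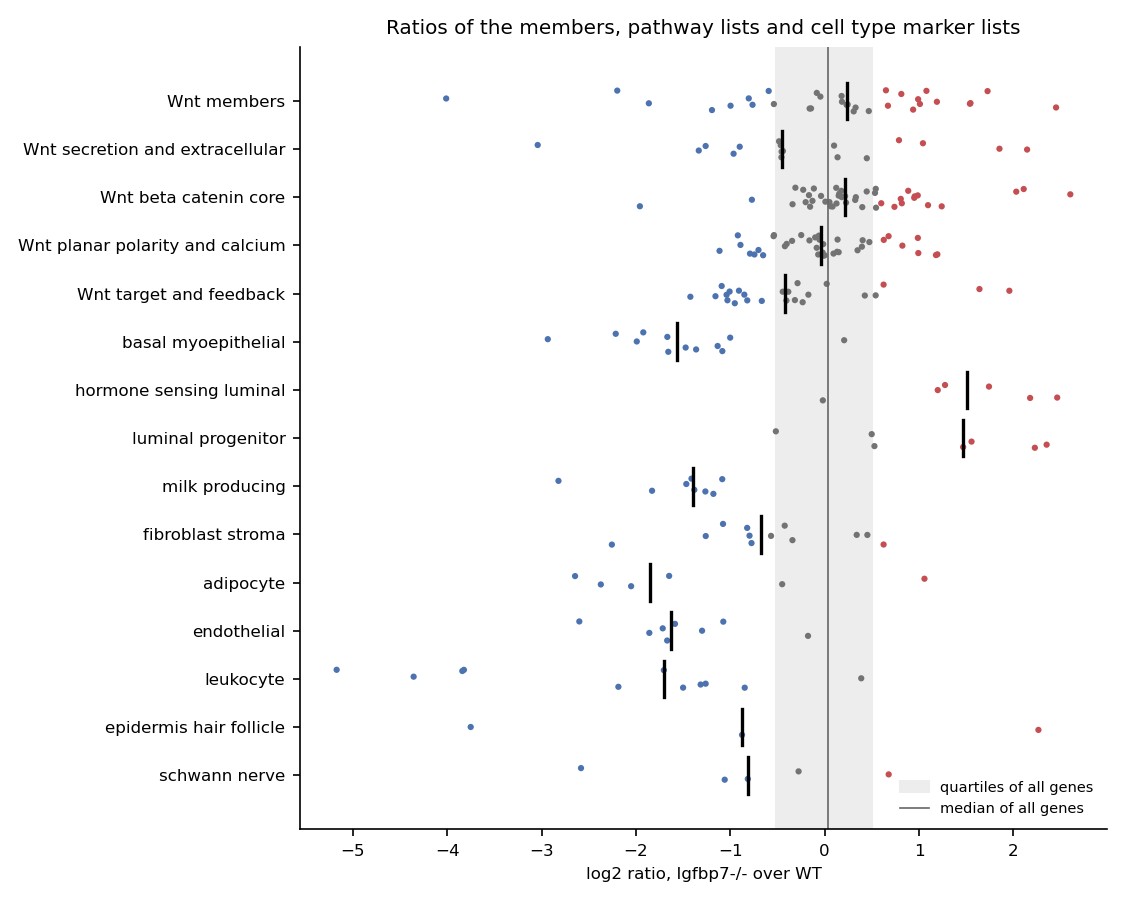
Log2 ratio of Igfbp7-/- over WT for the 32 Wnt members, the 4 pathway lists and the 10 cell type marker lists, 1 point per gene past 1 RPM (red higher, blue lower, grey not called), with a black bar at each median and the quartiles and median of all genes in grey. The medians of the pathway lists lie between -0.46 and 0.22, those of the basal and milk lists at -1.56 and -1.40, and that of the hormone-sensing list at 1.51.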

How the data were processed

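The authors sequenced paired-end reads on a SOLiD instrument and mapped them with a Bowtie-based pipeline allowing up to 3 mismatches. Their methods state that mitochondrial, ribosomal and small nuclear RNA was filtered. In the deposited values, 4 genes labelled as ribosomal RNA still held 2.95% (WT) and 3.15% (Igfbp7-/-) of the mapped reads. The submitters' processing notes name Bowtie 0.12.3, SAMtools 0.1.15 and mm9, while the methods name a human build. The authors deposited read counts per gene, which are not normalized, together with RPM and RPKM values. The deposited RPM divides the count by all mapped reads, listed or not, so a lower listed share lowers every RPM of a library. The deposited RPKM divides this by a gene length that the authors chose. How reads mapping to several places were handled was not given in the sources used here.

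Ratios were log2((RPM + 0.1) of Igfbp7-/- over WT). Intervals (exact Poisson per library, Clopper-Pearson for ratios) were computed with scipy 1.17.1 on read pairs, since 75.8% and 74.1% of low counts were even, and leave out the pseudocount. Rows without a gene symbol (0.0408% and 0.0484% of reads) were left out. The ratio script was tested on simulated data. TMM factors came from edgeR 4.0.16. The members, lists and tests were chosen with earlier results of these data known. All members are named. From each pathway list the 3 genes at either end of the ratios that reach 10 RPM in a library are named, plus 9 regulators. Up to 2 abundant markers of the cell type lists are named. Further genes of the secretion and extracellular list, and Pgr, were named after their values were seen. The alternatives were another pseudocount, unit, minimum, scaling, threshold or call by interval.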

Additional observations from a re-analysis of the deposited data

How the results depend on the processing

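No paired analysis was possible because each genotype had 1 library, and for the same reason no library could be left out. Results were computed under 13 alternatives, 1 of them (scaling to protein-coding reads) chosen after seeing the data. No called member changed direction under the 8 that alter a ratio. That outcome was fixed in advance, since a call needs a log2 ratio of at least 0.585 in size. The scalings moved the median of all genes by at most 0.211, and another pseudocount or unit cannot change a sign. Of the 20 called members 6 were called under every alternative: Wnt5b, Ror1 and Lgr4 higher, and Wnt5a, Wnt11 and Wif1 lower. A minimum of 10 RPM, which leaves 20 members, gave 7 higher and 5 lower. A threshold of 2 gave 7 higher and 4 lower members, and 12 higher and 11 lower pathway genes. Scaling to listed reads moved the median of all genes by 0.189 and that of the members from 0.239 to 0.42, and scaling to protein-coding reads by 0.211 and to 0.442. Fzd2, Fzd4 and Lgr6 lost their call with 1 RPM added, and Fzd4 and Sfrp1 lost it when scaled to listed reads, where Dkk3 (higher) and Sfrp5 (lower) were added. The longest annotated transcript in place of the authors' gene length, also chosen after seeing the data, changed levels per length but no ratio between libraries. Values of a single library carry animal and preparation differences that depth cannot reduce, and members under 100 reads have wide counting intervals.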

Other observations

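Markers of 3 further cell types were counted beside those given above, WT first. Adipocyte markers were lower in 4 of 6 (Fabp4, an adipocyte lipid carrier, 543 and 173 RPM) and higher in 1, while Pparg (55.6 and 40.7 RPM) was not called. Schwann markers were lower in 3 of 5 (Pmp22, 133 and 63.9 RPM) and higher in 1 (Mbp, 70.9 and 113.6 RPM). Epidermal markers were lower in 2 of 3 (Krt15, 48.2 and 3.48 RPM) and higher in 1 (Sbsn, 2.91 and 14.4 RPM). Krt2, Flg, Flg2 and Ivl were at 0 in both libraries.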
